A study of Ovis aries with 115 samples.

Results

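The cervix of Belclare ewes was compared between the follicular and the luteal phase of a synchronised oestrous cycle. Belclare is an Irish sheep breed, and the libraries were taken by their labels: breed Belclare, an induced cycle, and either phase. This gave 10 follicular and 10 luteal libraries of the 115 in the series, each labelled as a separate ewe. RNA of unsorted cervical tissue was sequenced after poly(A) selection with a stranded kit, so each library holds epithelium, connective tissue, muscle, vessels and immune cells together. The study's methods describe sections of the middle part of the cervix, cut clear of its folds, and not the whole organ. Per the study's methods, the ewes were adult and had lambed before, and the cycle was induced with a progestagen sponge followed by equine chorionic gonadotropin. The labels call the cycle of all 20 ewes induced, but the methods describe the follicular ewes, and how the luteal ewes were treated and timed is not given in the sources used here. A further 10 Belclare ewes in the follicular phase of a natural cycle serve as a side reference, and ewes of the Suffolk, Fur and Norwegian White Sheep (NWS) breeds in the same synchronised phases serve for the comparison between breeds.

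The cervix is a target of ovarian steroids. In the follicular phase oestradiol from the growing follicle dominates, the cervical glands secrete a thin and plentiful mucus, and the connective tissue loosens as oestrus approaches. In the luteal phase progesterone from the corpus luteum dominates and the canal is closed by thick mucus. Oestrogen acts through the nuclear receptors encoded by ESR1 and ESR2 and progesterone through that encoded by PGR. ESR1 and PGR carry no symbol in the name tables used here and are not described.

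Total counts per library were 16628290 to 22109169 in the follicular phase and 14783760 to 20570024 in the luteal phase. Levels below are CPM, the counts scaled to a common library size after normalisation, and a set of 3 levels gives the lowest, the median and the highest of 10 ewes. Log2 fold changes are follicular over luteal with their standard errors (SE), and adjusted p-values are from edgeR's quasi-likelihood test with Benjamini-Hochberg adjustment over 14521 genes. Each SE was worked back from that test, as the absolute log2 fold change over the square root of the F statistic. A gene was called where the adjusted p was under 0.05 and the fold above 1.5, and the words higher, rose and fell are kept for called genes. Levels are not scaled to gene length, so they are compared between ewes and not between genes.

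The phases did not overlap on the first principal component of the 20 libraries, which held 38.3% of the variance. Libraries of 1 ewe in each phase stood apart. Follicular replicate 2 lay at -89.2 on the second component, where its group mates lay between -25.0 and 39.9, and had the highest summed level of the smooth muscle markers. Luteal replicate 7 lay at -82.1 on the third component, where the other luteal ewes lay between -31.9 and 17.6, and its 10 most counted genes took 19.6% of its counts, against 4.52% to 6.82% in the other luteal ewes. For several results, though not for all, values without 1 or both of these libraries are given as well.

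**Figure D1:**
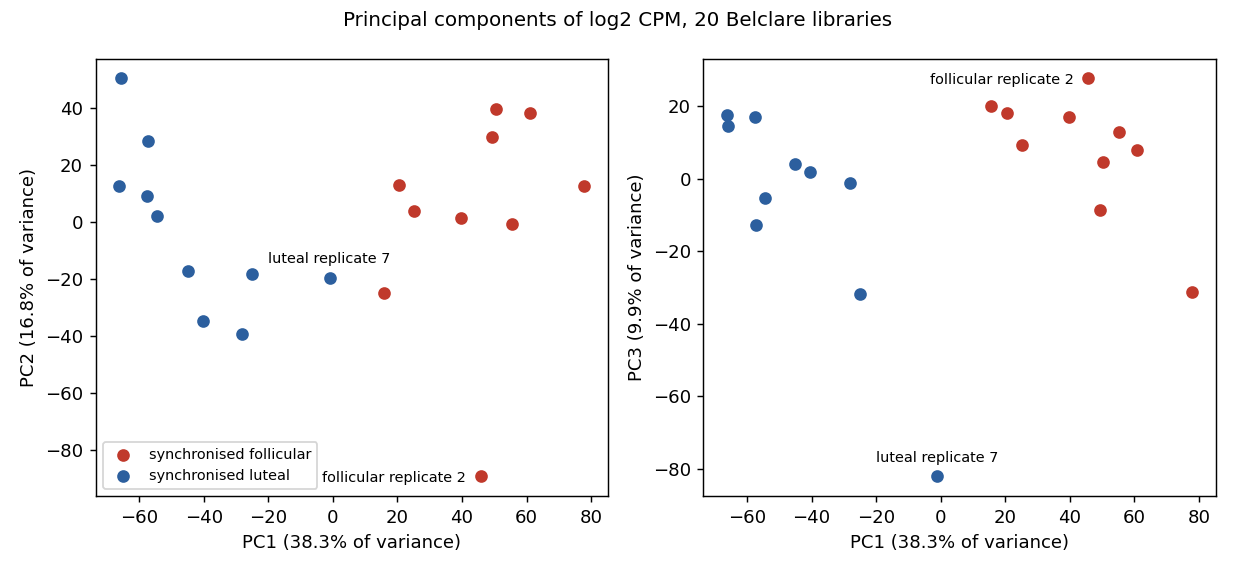
Scores of the 20 Belclare libraries on principal component 1 (x axis, 38.3% of variance) against component 2 (left, y axis, 16.8%) and component 3 (right, y axis, 9.9%), computed from log2 CPM. Each point is 1 ewe, and follicular replicate 2 and luteal replicate 7, which stand apart from their groups, are labelled.

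Of the 14521 genes tested, 3249 were called (22.4%). The follicular phase had the higher level for 1732 of them (11.9% of the genes tested) and the luteal phase for 1517 (10.4%). The change was over 4-fold for 270 genes higher in the follicular phase and for 171 higher in the luteal phase, and over 16-fold for 49 and 22. The levels of all 10 follicular ewes lay above or below those of all 10 luteal ewes for 632 genes (4.35%), with the follicular ewes above for 386 (2.66%) and the luteal ewes above for 246 (1.69%). With follicular replicate 2 and luteal replicate 7 left out, 3579 genes were called, 1748 higher in the follicular and 1831 higher in the luteal phase. Gene symbols were at hand for 1313 of the tested identifiers, from the study's tables of genes that differ between breeds, so named genes are no random sample. Of these, 35.1% were called, 23.4% higher in the follicular and 11.7% higher in the luteal phase, and their median log2 fold change was 0.10 against 0.0067 over all genes tested. The phases did not overlap for 80 of them (6.09%).

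Several genes that respond to ovarian steroids separated the phases completely. GREB1 (ENSOARG00000016103), an oestrogen-induced gene, was at 293.4, 710.0 and 1096 CPM in the follicular phase and at 13.5, 23.4 and 41.4 CPM in the luteal phase. Every follicular ewe was thus far above every luteal ewe, and the log2 fold change was 4.88 (SE 0.26, adjusted p = 1.49e-10). PADI4, a peptidylarginine deiminase, which turns arginine residues of proteins into citrulline, was at 26.8, 102.1 and 226.6 CPM against 1.61, 2.79 and 5.75 CPM, again with no overlap, a log2 fold change of 4.94 (SE 0.41, adjusted p = 7.96e-08). Its relative PADI2 overlapped between the phases, at 21.3, 32.4 and 45.5 CPM against 7.59, 16.03 and 28.0 CPM, and rose by 0.97 on the log2 scale (SE 0.21, adjusted p = 0.00114).

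TAC3, which encodes the tachykinin neurokinin B, had the largest change of any gene with a symbol. The name stands on 2 identifiers. Per the study's methods only uniquely mapped read pairs were kept, so pairs that match both equally well would count for neither. ENSOARG00000007920 was at 80.3, 184.6 and 347.6 CPM in the follicular phase and at 0.18, 0.97 and 3.56 CPM in the luteal phase, a log2 fold change of 7.38 (SE 0.48, adjusted p = 1.67e-09). ENSOARG00000010440 was at 44.4, 99.2 and 182.8 CPM against 0.15, 0.63 and 1.81 CPM, a log2 fold change of 7.26 (SE 0.42, adjusted p = 3.29e-10). The phases overlapped for neither.

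OXTR, the oxytocin receptor, was low in both phases but separated them, at 1.59, 7.49 and 33.4 CPM in the follicular phase and 0, 0.44 and 1.34 CPM in the luteal phase. Its log2 fold change was 4.41 (SE 0.70, adjusted p = 6.46e-05). LIF, a cytokine of the interleukin-6 family, was at 4.97, 16.2 and 24.5 CPM against 1.08, 2.82 and 4.29 CPM, without overlap, and rose by 2.64 on the log2 scale (SE 0.26, adjusted p = 5.79e-07). HSD11B1, which regenerates active glucocorticoid from its inert form, rose by 3.59 (SE 0.39, adjusted p = 1.49e-06), from 0.52, 1.24 and 5.49 CPM in the luteal to 9.46, 20.7 and 32.3 CPM in the follicular phase.

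ESR2, the oestrogen receptor beta, went the other way. It was at 2.81, 6.71 and 10.3 CPM in the follicular and 2.48, 20.9 and 46.4 CPM in the luteal phase, with ewes of both phases at the low end, and a log2 fold change of -1.66 (SE 0.44, adjusted p = 0.00486). FKBP5, a chaperone gene induced by glucocorticoid and progesterone, was not called, at 71.4, 153.2 and 231.6 CPM against 65.1, 171.9 and 268.7 CPM (log2 fold change -0.12, SE 0.23, adjusted p = 0.685). Of the 26 tested identifiers on the list of steroid receptors and steroid-responsive genes, 11 rose and 2 fell, and their median log2 fold change was 0.74. The share called was 50%, against 22.4% of all genes tested and 35.1% of genes with a symbol. Without luteal replicate 7 the counts were 14 and 2, and without follicular replicate 2 they were 12 and 2. The names that follow are from the fit with all 20 libraries. The others that rose were RBP4, STRA6, KLF9, the membrane progestin receptor gene PAQR6 and WNT4, and the other that fell was PROKR1, a prokineticin receptor gene.

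**Figure D2:**
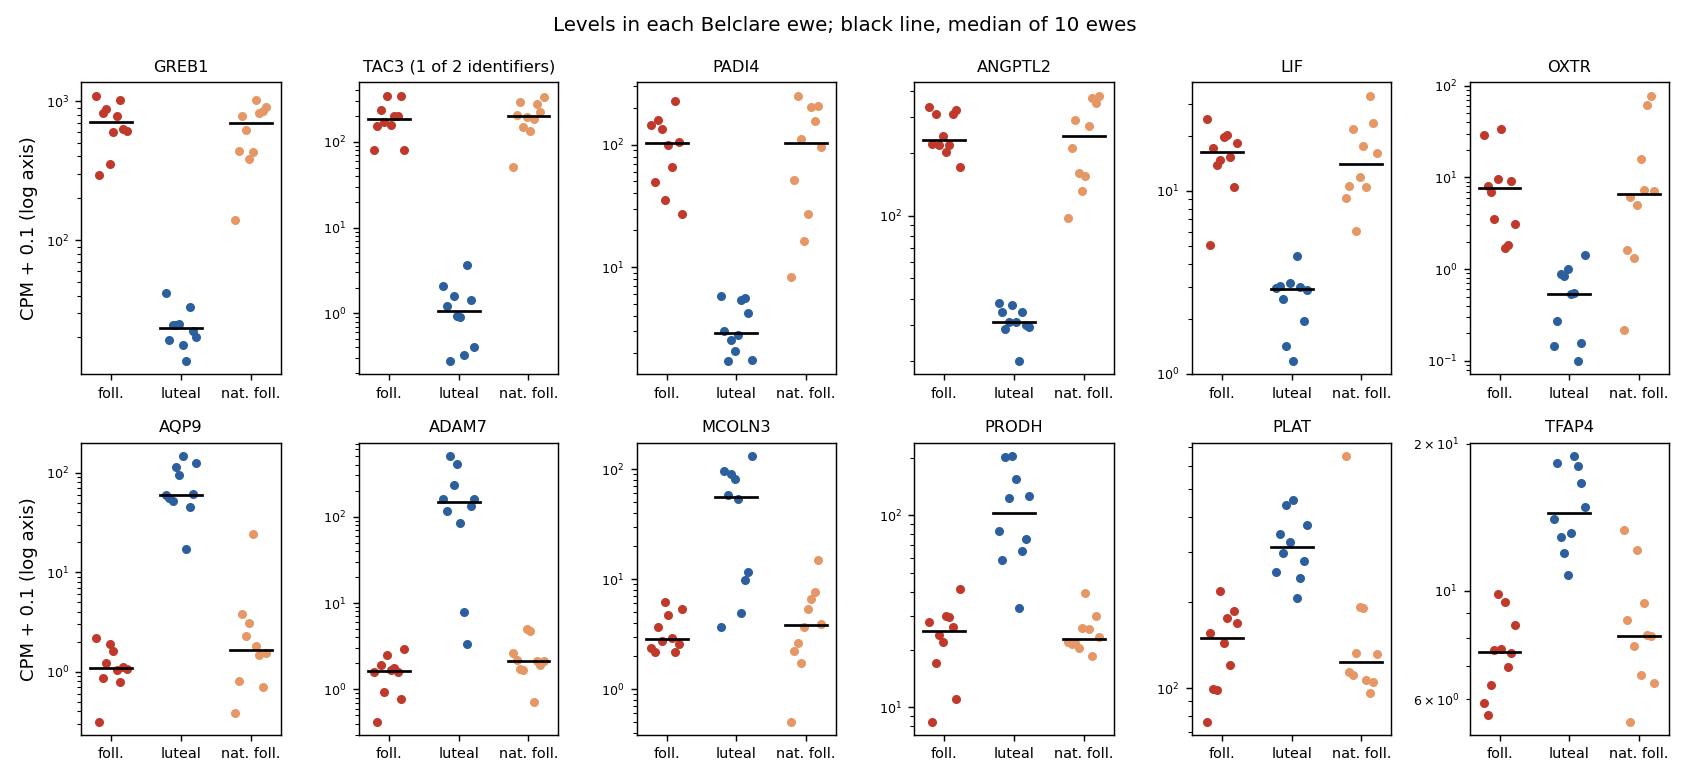
Levels of 12 genes in each Belclare ewe (y axis, CPM plus 0.1 on a log axis) in the synchronised follicular, synchronised luteal and natural follicular phase. Each point is 1 ewe and each black line the median of 10. The upper row holds genes higher in the follicular phase, such as GREB1 with all follicular ewes at 293.4 CPM or more and all luteal ewes at 41.4 CPM or less, and the lower row genes higher in the luteal phase.

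Among the other named genes of smallest p that rose, ANGPTL2, a secreted angiopoietin-like protein, had the smallest p-value of all genes tested. It was at 171.9, 232.6 and 332.7 CPM in the follicular and 19.97, 30.8 and 38.0 CPM in the luteal phase, without overlap (log2 fold change 3.03, SE 0.14, adjusted p = 1.24e-11). ZNF77, SETD7, TMEM132A, WIPI1 and AC068580.4 changed less, with log2 fold changes from 0.96 to 1.58, but the phases did not overlap for any of them. ZNF77, a zinc finger gene, was at 23.0, 25.9 and 29.4 CPM against 7.94, 10.3 and 12.01 CPM (log2 fold change 1.35, SE 0.08, adjusted p = 4.37e-10). WIPI1, which acts in the forming autophagosome, was at 39.0, 48.5 and 57.0 CPM against 10.97, 16.4 and 26.7 CPM (log2 fold change 1.58, SE 0.13, adjusted p = 7.43e-08). SETD7, a lysine methyltransferase gene, had a log2 fold change of 1.41 (SE 0.13, adjusted p = 1.97e-07). The transglutaminase gene TGM7 was at 0.87, 3.55 and 86.5 CPM against 0.09, 0.35 and 0.42 CPM, so its levels spread widely within the follicular phase. Follicular replicate 9 held the highest level, and the next was 19.5 CPM. The luteal libraries held only 2 to 8 counts. Its log2 fold change was 5.41 (SE 0.86), and 4.10 to 5.56 with 1 ewe left out at a time.

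Of the genes without a symbol, ENSOARG00000017850 was at 6.33, 16.4 and 43.3 CPM in the follicular phase, while 9 luteal libraries held 0 counts and the other held 1 count. ENSOARG00000019783 was at 9.81, 32.8 and 61.5 CPM against 0.06, 0.17 and 0.56 CPM (log2 fold change 7.18, SE 0.41, adjusted p = 3.29e-10).

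The extracellular matrix list, the largest, held the most calls. Its share called was 70.5%, against 22.4% of all genes tested and 35.1% of genes with a symbol. Smaller lists had a like share, with 70.8% of Wnt signalling (GREB1 included) and 75% of retinoid handling. Members and lists were chosen with earlier results of these data known, so these shares are no independent test of the lists. Collagens, glycoproteins and the enzymes that cut or cross-link them give the cervix its stiffness. Of the 44 tested identifiers of the matrix list 29 rose and 2 fell, and the median log2 fold change was 1.01. The phases did not overlap for 11 of them, as for 4.35% of all genes tested and 6.09% of genes with a symbol. THBS2, a thrombospondin of the matrix, stands on 3 identifiers, which rose by 3.005 to 3.075 on the log2 scale. The most counted was at 37.1, 71.5 and 215.5 CPM against 4.42, 9.58 and 16.1 CPM (adjusted p = 9.78e-07). FBLN1, the matrix glycoprotein fibulin-1, was at 772.7, 1114 and 2031 CPM against 234.4, 538.2 and 704.2 CPM, without overlap (log2 fold change 1.30, SE 0.22, adjusted p = 0.000121).

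CRISPLD2 and SPON2, secreted proteins, rose by 1.48 (SE 0.16) and 1.58 (SE 0.18) and COMP, a cartilage matrix protein, by 1.95 (SE 0.22), all without overlap between the phases. Of the enzymes, MMP2, a gelatinase, was at 345.3, 563.2 and 851.5 CPM against 141.2, 257.3 and 401.3 CPM, with 8 of 10 follicular ewes above every luteal ewe (log2 fold change 1.18, SE 0.19, adjusted p = 6.80e-05). MMP14, the membrane protease that activates MMP2, was at 614.8, 741.2 and 969.0 CPM against 213.8, 424.4 and 600.2 CPM, without overlap (log2 fold change 0.98, SE 0.18, adjusted p = 0.000235). HYAL1, a hyaluronidase, rose by 1.27 (SE 0.19), the lysyl oxidase relative LOXL2 by 1.11 (SE 0.24), and CTSK, a collagen-degrading cathepsin, by 1.04 (SE 0.18).

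The genes that fell on this list were PLAT and COL4A4. PLAT, the tissue plasminogen activator, was at 76.3, 149.7 and 219.1 CPM in the follicular and 207.5, 312.2 and 456.0 CPM in the luteal phase, with 9 of 10 follicular ewes below every luteal ewe (log2 fold change -1.16, SE 0.19, adjusted p = 7.22e-05). COL4A4, a basement membrane collagen chain, had a log2 fold change of -0.82 (SE 0.29, adjusted p = 0.0273).

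Of 8 fibroblast markers tested, AEBP1, FBLN1 and FAP, which are also counted on the matrix list, rose and none fell, and the summed level of the list was 1518 to 3831 CPM in the follicular and 481.2 to 1538 CPM in the luteal phase. All 8 fibroblast markers had positive log2 fold changes, from 0.17 to 1.73, and 5 were not called. Among those not called were PDGFRB, ISLR and TWIST2, at 0.54, 0.26 and 0.17. The share of fibroblast markers called, 37.5%, is near the 35.1% of genes with a symbol, and 22.4% of all genes tested were called. In whole tissue, fewer cells of a type and less RNA per cell cannot be told apart, and the part of the fibroblast share in the matrix result was not tested. Without follicular replicate 2 and luteal replicate 7 the matrix list held 28 rises and 2 falls, and the median log2 fold change of the fibroblast markers went from 0.89 to 0.48.

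Lysosomes break down glycoproteins, glycolipids and matrix fragments taken up by the cell. Of the 43 tested identifiers of lysosomal enzymes and membrane proteins 23 rose and 3 fell, the median log2 fold change was 0.72, and the phases did not overlap for 13. The share called was 60.5%, against 22.4% of all genes tested and 35.1% of genes with a symbol. The phases did not overlap for 4.35% of all genes tested and 6.09% of genes with a symbol. CTSB, a cathepsin, was at 303.6, 402.5 and 513.6 CPM against 164.7, 209.2 and 254.0 CPM (log2 fold change 0.96, SE 0.10, adjusted p = 1.12e-06). FUCA1, a fucosidase, rose by 0.91 (SE 0.09) and SMPD1, the acid sphingomyelinase, by 0.77 (SE 0.08), both without overlap. GRN, progranulin, was at 275.3, 401.6 and 457.2 CPM against 128.8, 163.2 and 281.3 CPM, with 1 follicular ewe inside the luteal range (log2 fold change 1.15, SE 0.12, adjusted p = 1.08e-06).

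The 3 lysosomal genes that fell are membrane proteins. MCOLN3, a cation channel of endosomes and lysosomes, was at 2.06, 2.73 and 6.06 CPM in the follicular and 3.54, 55.4 and 130.4 CPM in the luteal phase (log2 fold change -3.98, SE 0.59, adjusted p = 3.55e-05). Luteal ewes were spread from the follicular range up to the highest level, and 6 of 10 follicular ewes lay below every luteal ewe. Its relative MCOLN2 had a log2 fold change of -1.66 (SE 0.27, adjusted p = 9.94e-05) and NPC1, which exports cholesterol from the lysosome, of -1.03 (SE 0.22, adjusted p = 0.000835).

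Mucins, the glycoproteins that make up mucus or coat the epithelium, and the enzymes that build or trim their sugars held 9 rises and 1 fall among 21 tested identifiers, and 11 were not called. The median log2 fold change was 0.42, and without luteal replicate 7 it was 0.67 with 11 rises and 1 fall. With all libraries the share called was 47.6%, against 22.4% of all genes tested and 35.1% of genes with a symbol. MUC16, a membrane mucin, was at 535.5, 1540 and 2861 CPM against 339.2, 537.1 and 994.6 CPM, with 8 of 10 follicular ewes above every luteal ewe (log2 fold change 1.45, SE 0.24, adjusted p = 8.86e-05). MUC1, also membrane-bound, was at 376.5, 1212 and 1571 CPM against 436.5, 527.1 and 858.9 CPM (log2 fold change 0.99, SE 0.20, adjusted p = 0.000636). MUC5B, the gel-forming mucin of cervical glands, was at 63.0, 116.2 and 326.3 CPM against 26.8, 45.3 and 133.4 CPM, with 4 follicular ewes above every luteal ewe (log2 fold change 1.33, SE 0.36, adjusted p = 0.00523). Of the enzymes, ST6GAL2, a sialyltransferase, was at 2.01, 3.01 and 7.46 CPM against 0.15, 0.38 and 0.91 CPM, and CHST7, a sulfotransferase, at 12.1, 17.8 and 43.5 CPM against 2.69, 6.77 and 8.93 CPM, neither with overlap. B4GALNT4, a sugar transferase, was the member that fell (log2 fold change -0.63, SE 0.13).

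MUC5AC, the other gel-forming mucin named here, turned on 1 library. It was at 2.06, 8.71 and 61.5 CPM in the follicular and 0.73, 3.67 and 318.1 CPM in the luteal phase, and was not called (log2 fold change -1.23, SE 0.99, adjusted p = 0.327). The highest luteal level belongs to replicate 7, and the next was 11.6 CPM. Without that library the sign turned and the gene was called higher in the follicular phase, with a log2 fold change of 1.73 (adjusted p = 0.0237).

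**Figure D3:**
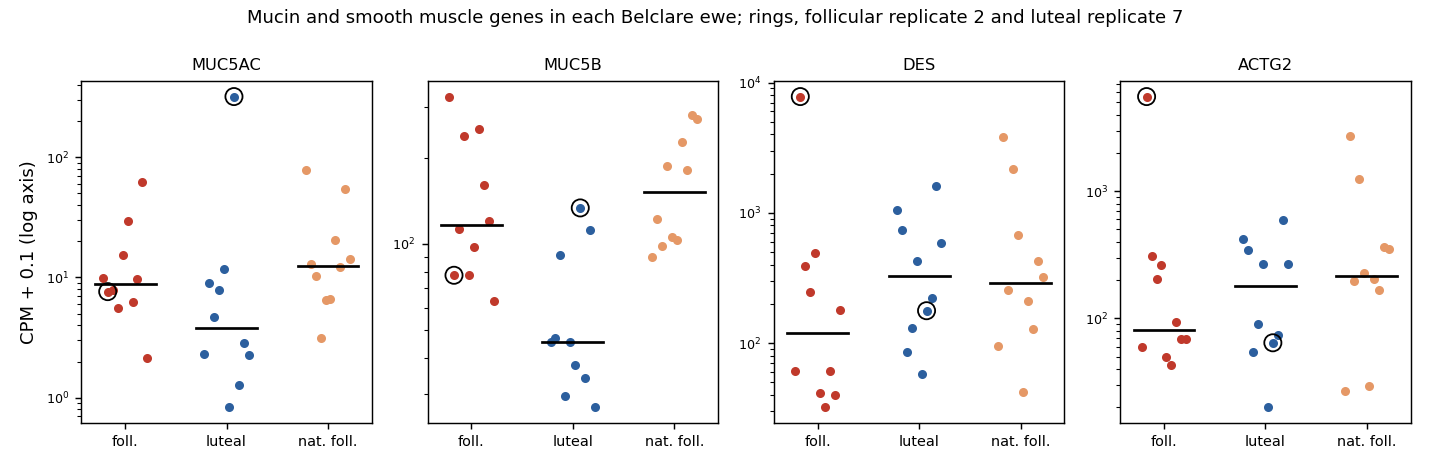
Levels of MUC5AC, MUC5B, DES and ACTG2 in each Belclare ewe (y axis, CPM plus 0.1 on a log axis) by phase, with the median of 10 ewes as a black line. Rings mark follicular replicate 2, which holds the highest DES (7799 CPM) and ACTG2 (5549 CPM), and luteal replicate 7, which holds the highest MUC5AC (318.1 CPM).

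Genes of ion, proton and water transport, which set the volume and acidity of the secretion, went both ways, with 8 rises and 9 falls among 37 tested identifiers and a median log2 fold change of -0.08, which was 0.02 without follicular replicate 2. With all libraries the share called was 45.95%, against 22.4% of all genes tested and 35.1% of genes with a symbol. CFTR, the chloride and bicarbonate channel of secretory epithelium, was at 48.3, 158.6 and 267.0 CPM in the follicular and 21.1, 35.1 and 64.8 CPM in the luteal phase, with 9 of 10 follicular ewes above every luteal ewe (log2 fold change 2.04, SE 0.25, adjusted p = 5.51e-06). ATP12A, a proton and potassium pump, was at 2.81, 6.48 and 23.6 CPM against 0.12, 0.42 and 1.31 CPM, without overlap (log2 fold change 4.51, SE 0.53, adjusted p = 3.13e-06). The proton pump subunit gene ATP6V1B1 rose by 1.25 (SE 0.24), the water channel gene AQP5 by 1.18 (SE 0.32), and the potassium channel gene KCNK6 by 1.08 (SE 0.15).

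AQP9, a channel for water and glycerol, had the smallest p-value of the named genes that were higher in the luteal phase. It was at 0.22, 1.003 and 2.09 CPM in the follicular and 17.0, 60.1 and 145.9 CPM in the luteal phase, so that every luteal ewe lay well above every follicular ewe (log2 fold change -6.09, SE 0.40, adjusted p = 1.89e-09). SCNN1A, a subunit of the epithelial sodium channel, had a log2 fold change of -0.81 (SE 0.28, adjusted p = 0.0259). SLC5A8, SLC4A11, SLC34A2 and KCNJ2 fell by 0.68 to 1.65 on the log2 scale.

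ADAM7, a member of the ADAM family known from the epididymis, had the largest change of the named genes higher in the luteal phase. It was at 0.32, 1.53 and 2.87 CPM in the follicular and 3.25, 146.3 and 499.5 CPM in the luteal phase, without overlap but with luteal ewes spread widely (log2 fold change -6.88, SE 0.74, adjusted p = 1.42e-06). PRODH, which begins the breakdown of proline, was at 8.33, 24.9 and 41.4 CPM against 32.9, 103.0 and 202.9 CPM (log2 fold change -2.25, SE 0.33, adjusted p = 2.78e-05). PFKFB3, which sets the rate of glycolysis, was at 15.5, 27.9 and 75.1 CPM against 43.7, 110.1 and 260.0 CPM (log2 fold change -2.003, SE 0.31, adjusted p = 4.80e-05). In both, 9 of 10 follicular ewes lay below every luteal ewe.

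The sphingomyelinase gene SMPD3 and the sphingomyelinase-like gene SMPDL3B had log2 fold changes of -1.82 (SE 0.29) and -3.45 (SE 0.68). SMPDL3B overlapped between the phases, since its lowest luteal level, 0.68 CPM, lay below the whole follicular range of 0.94 to 5.82 CPM while the luteal median was 31.7 CPM. The transcription factor gene TFAP4 separated the phases at a small change, with 5.46, 7.39 and 9.73 CPM against 10.7, 14.3 and 18.7 CPM (log2 fold change -0.997, SE 0.13, adjusted p = 8.49e-06), and FAM173A did so at a log2 fold change of -0.63 (SE 0.09). KIAA1024 and the scramblase gene XKR8 had log2 fold changes of -2.26 (SE 0.36) and -0.71 (SE 0.12). Of the genes without a symbol, ENSOARG00000010539 was at 1.25, 4.62 and 9.06 CPM against 44.8, 139.5 and 178.7 CPM (log2 fold change -4.51, SE 0.36), and ENSOARG00000006771 at 1.76, 2.40 and 4.88 CPM against 9.31, 11.5 and 12.96 CPM (log2 fold change -2.09, SE 0.16).

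Retinoids, the vitamin A derivatives that maintain mucosal epithelium, are carried by dedicated binding proteins. Of 8 tested identifiers on that list 5 rose and 1 fell. RBP2, a cellular retinol-binding protein, was at 1.30, 9.15 and 34.0 CPM against 0, 0.06 and 0.97 CPM (log2 fold change 6.34, SE 0.77, adjusted p = 4.28e-06). RBP4, the retinol carrier of plasma, and STRA6, its receptor, rose by 1.73 (SE 0.29) and 1.90 (SE 0.33). LRP2, an endocytic receptor that takes up RBP4 among other ligands, was higher in the luteal phase, at 2.70, 13.9 and 111.0 CPM against 6.93, 176.0 and 372.7 CPM (log2 fold change -2.82, SE 0.71, adjusted p = 0.00344).

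Of the 23 Wnt signalling genes tested other than GREB1, which the list also holds, 12 rose and 4 fell, with a median log2 fold change of 0.69. The ligand gene WNT10B was at 35.1, 47.3 and 56.7 CPM against 22.8, 28.1 and 31.2 CPM, without overlap (log2 fold change 0.74, SE 0.09, adjusted p = 5.92e-06), and WNT2, WNT4 and WNT6 also rose. Genes that limit the pathway rose too: NOTUM, which inactivates Wnt ligands, by 2.52 (SE 0.33), APCDD1 by 1.13 (SE 0.18) and AXIN2 by 0.84 (SE 0.15). WLS, which escorts Wnt ligands to the cell surface, fell by 0.88 on the log2 scale (SE 0.23, adjusted p = 0.00457), as did the receptor gene FZD5, by 0.87 (SE 0.30). Of 11 Notch and Hedgehog genes none rose and 2 fell, the Hedgehog receptor gene PTCH1 and the Notch ligand gene DLL4. The shares called were 69.6% for the Wnt genes without GREB1 and 18.2% for the Notch and Hedgehog genes. Of all genes tested 22.4% were called, and of genes with a symbol 35.1%.

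Among lipid mediator genes 4 rose and 1 fell of 13. The share called was 38.5%, against 22.4% of all genes tested and 35.1% of genes with a symbol. PLA2G4F, a phospholipase, was at 15.0, 152.9 and 390.8 CPM against 1.25, 5.66 and 15.9 CPM, with 9 of 10 follicular ewes above every luteal ewe (log2 fold change 4.49, SE 0.53, adjusted p = 3.36e-06). PTGS1, a cyclooxygenase that starts prostaglandin synthesis, was higher in the luteal phase, at 11.4, 27.4 and 45.0 CPM against 21.2, 78.8 and 148.9 CPM (log2 fold change -1.62, SE 0.34, adjusted p = 0.000826). Of 11 proliferation genes 5 rose (45.5% called) and none fell, among the rises the kinetochore gene SPC24 by 2.34 (SE 0.37) and IQGAP3 by 2.27 (SE 0.41). None of the 3 clock-controlled genes tested, NR1D1, NR1D2 and USP2, was called, with log2 fold changes of 0.05 to 0.16.

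Transcription factors that pattern the reproductive tract held 2 rises and 5 falls of 25, a share called that lies between those of all genes and of genes with a symbol. Their median log2 fold change was -0.21. Without follicular replicate 2 it was -0.10, with 2 rises and 4 falls. Without luteal replicate 7 it was -0.21, with 1 rise and 7 falls. With both libraries left out the list held 2 rises and 7 falls, so the share called depends on these libraries. PAX2 was at 17.8, 49.3 and 65.1 CPM against 54.6, 89.8 and 187.8 CPM (log2 fold change -1.21, SE 0.26, adjusted p = 0.00106). SOX17, HOXA3, DLX5 and SALL4 fell by 0.63 to 0.93, and ESRRG and TFAP2C rose. Of 29 interferon-induced identifiers 5 fell and 2 rose, with a median log2 fold change of -0.31 (-0.20 without both libraries that stood apart). That share called, 24.1%, is near the 22.4% of all genes tested and below the 35.1% of genes with a symbol. ISG15, a ubiquitin-like protein, was at 2.42, 5.20 and 20.5 CPM against 8.97, 13.5 and 120.8 CPM, with 9 of 10 follicular ewes below every luteal ewe (log2 fold change -2.09, SE 0.52, adjusted p = 0.00307), and OAS1, OAS2, LY6E and RNF213 fell by 0.90 to 1.40. IRF8, a transcription factor of the same list, rose by 1.02 (SE 0.22).

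Acute phase, complement and antimicrobial genes showed 8 rises and 3 falls of 27 tested identifiers, with a median log2 fold change of 0.38. The share called was 40.7%, against 22.4% of all genes tested and 35.1% of genes with a symbol. LCN2, the iron-scavenging lipocalin, was at 7.89, 38.3 and 58.2 CPM against 5.36, 9.27 and 37.2 CPM (log2 fold change 1.605, SE 0.36, adjusted p = 0.0015). HMOX1, haem oxygenase, rose by 0.78 (SE 0.14) without overlap, and SAA1, serum amyloid A, by 2.71 (SE 0.52) on 1 of its 2 tested identifiers. GNLY, granulysin, and COLEC10, a collectin, had log2 fold changes of -1.30 (SE 0.32) and -2.12 (SE 0.45). ORM2, an acute phase glycoprotein, had a luteal range of 0.24 to 52.5 CPM around a median of 1.34 CPM and a log2 fold change of -2.82 (SE 1.003, adjusted p = 0.0284). Without follicular replicate 2 and luteal replicate 7 the list held 12 rises and 3 falls.

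**Figure D4:**
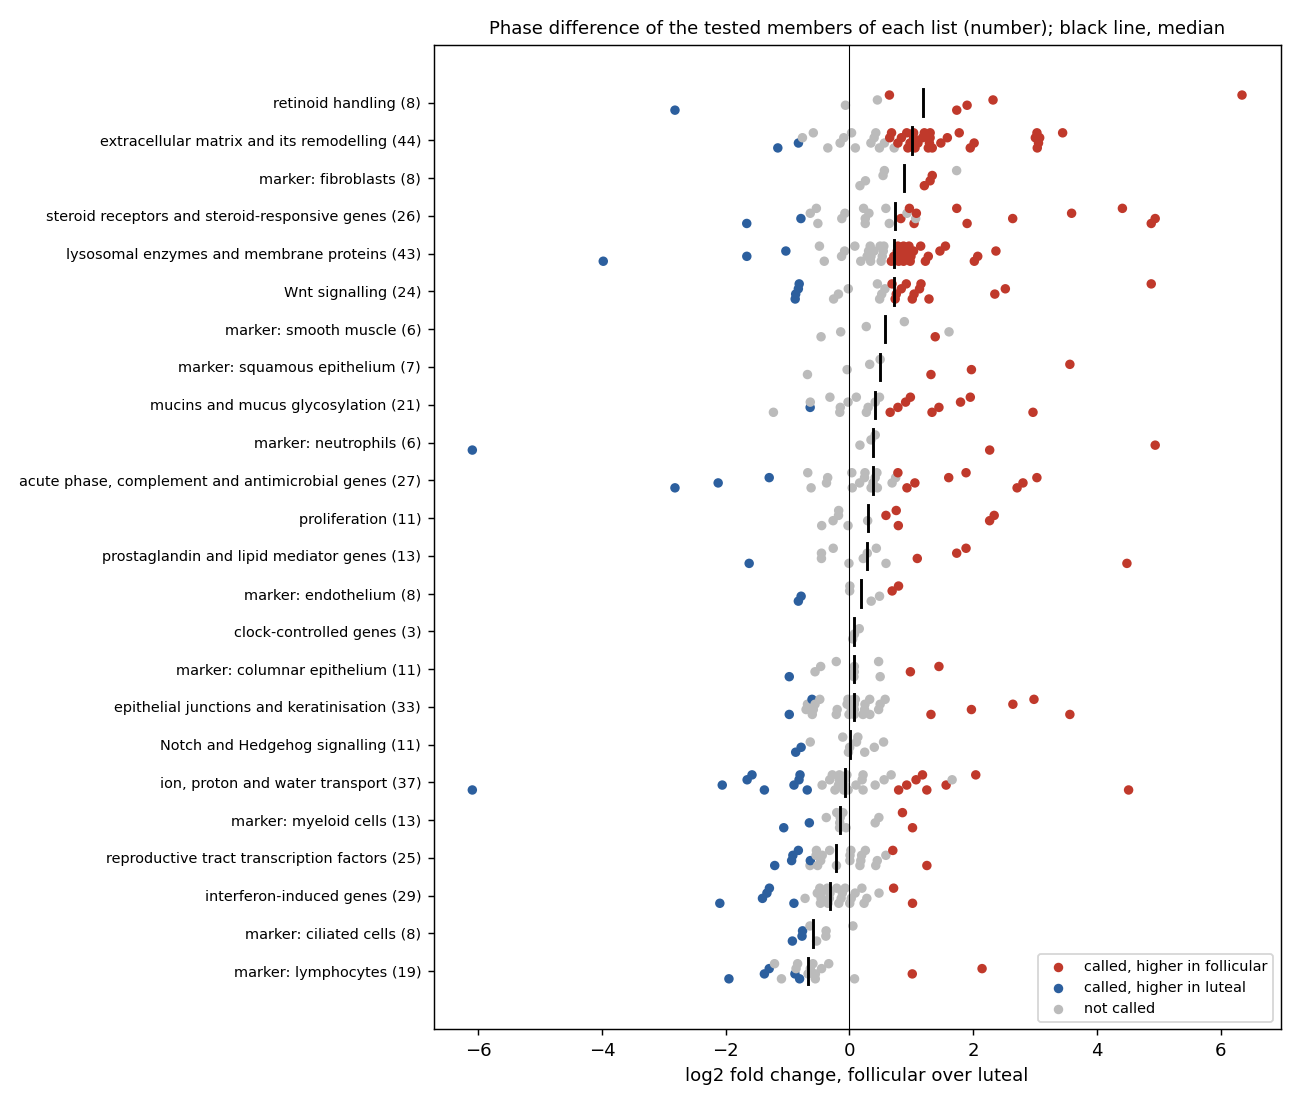
Log2 fold change (x axis, follicular over luteal) of every tested member of each gene list (y axis, number of identifiers in brackets), sorted by the median, which is the black line. Colours mark genes called higher in the follicular or the luteal phase and grey the genes not called. The matrix list has 29 rises and 2 falls and the lysosomal list 23 and 3, while ion transport has 8 and 9.

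Of 11 columnar epithelium markers MUC16 and MUC1 rose and CLDN4, a tight junction protein, fell by 0.97 (SE 0.21), and CDH1, CLDN7, LSR and SPINT1 had log2 fold changes between -0.21 and 0.08 and were not called. The epithelial junction and keratinisation list held 5 rises, led by CLDN10 (log2 fold change 2.98, SE 0.58) and KRT1 (3.56, SE 0.73), and 2 falls among 33. That share called, 21.2%, lies below those of all genes tested (22.4%) and of genes with a symbol (35.1%). The list held 6 rises and 1 fall without follicular replicate 2, and 6 and 4 without luteal replicate 7. Of 7 squamous markers 3 rose, KRT1, EVPLL and A2ML1, with summed levels of 31.4 to 184.3 CPM in the follicular and 71.1 to 205.2 CPM in the luteal phase. Ciliated cell markers held no rise and 3 falls of 8, MYCBPAP, CFAP52 and DRC7, by 0.76 to 0.92, with a summed level of 114.6 to 316.4 CPM against 143.0 to 523.7 CPM. The share of ciliated cell markers called, 37.5%, is near the 35.1% of genes with a symbol. The falls numbered 1 without follicular replicate 2 and 5 without luteal replicate 7.

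Of 19 lymphocyte markers 5 fell and 2 rose, with a median log2 fold change of -0.67, and of 13 myeloid markers 2 rose and 2 fell. The shares called, 36.8% and 30.8%, are near the 35.1% of genes with a symbol. Of all genes tested 22.4% were called. Luteal replicate 7 had the highest summed level of both lists among luteal ewes, 362.1 CPM and 552.8 CPM. IRF4, a transcription factor of plasma cells, was at 1.499, 3.39 and 9.76 CPM against 3.45, 7.27 and 89.5 CPM (log2 fold change -1.95, SE 0.58, adjusted p = 0.0104). Without luteal replicate 7 the lymphocyte list held 5 falls and 2 rises with a median of -0.43, and the myeloid list 1 rise and 1 fall. On the neutrophil list the members that moved most were AQP9 and PADI4, in opposite directions, CD177 rose by 2.27 (SE 0.67), and the receptor gene CXCR2 was too low to be tested. Endothelial markers held 2 rises and 2 falls of 8 (50% called), and VWF was not called, at 656.6, 938.4 and 1082 CPM against 782.8, 900.2 and 1022 CPM (log2 fold change 0.01, SE 0.11).

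Smooth muscle markers differed more between ewes than between phases. DES, the muscle intermediate filament desmin, was at 32.1, 119.9 and 7799 CPM in the follicular and 57.7, 326.4 and 1594 CPM in the luteal phase (log2 fold change 0.89, SE 0.97, adjusted p = 0.479). ACTG2, a smooth muscle actin, was at 43.2, 81.1 and 5549 CPM against 19.9, 178.8 and 596.6 CPM (log2 fold change 1.61, SE 0.92, adjusted p = 0.161). Follicular replicate 2 holds the highest level of both, and without it the signs turned, to -1.56 for DES (adjusted p = 0.0649) and -0.78 for ACTG2 (adjusted p = 0.272). HRC, a calcium-binding protein of the sarcoplasmic reticulum, was the 1 called marker of 6 (log2 fold change 1.39, SE 0.29). Without both libraries that stood apart the list held 1 rise and 2 falls, and its median log2 fold change turned from 0.58 to -0.57.

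The 10 Belclare ewes sampled in a natural follicular phase gave a view of the same genes without the hormone treatment of the synchronised cycle. They were set beside the same luteal ewes, so the values are not a second, independent comparison. GREB1 was at 140.0, 701.5 and 1022 CPM in them, PADI4 at 8.23, 103.4 and 251.5 CPM, ANGPTL2 at 97.8, 241.6 and 378.9 CPM and LIF at 5.95, 13.9 and 33.1 CPM, and in all 4 genes each natural ewe lay above every luteal ewe. PADI2 was at 5.56, 15.5 and 65.4 CPM in the natural ewes, around the luteal levels, with 3 of 10 above and 1 below every luteal ewe. OXTR was at 0.12, 6.51 and 78.0 CPM, with 8 of 10 natural ewes above every luteal ewe. AQP9 was at 0.29, 1.57 and 24.4 CPM and ADAM7 at 0.61, 2.01 and 4.87 CPM, and 9 and 8 natural ewes lay below every luteal ewe. PLAT was at 95.8, 123.2 and 650.9 CPM, so that 9 natural ewes lay below and 1 above all luteal ewes.

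Ewes of the other breeds, which share no animal with the Belclare comparison, allow the phase difference to be set beside that of independent samples. Each breed was tested on the 14521 genes that passed the filter in Belclare, so genes expressed only in another breed are not counted. The same call rule gave 2480 genes in Suffolk (17.1%, 11 follicular and 10 luteal ewes), 3457 in Fur (23.8%, 8 and 9 ewes) and 3223 in NWS (22.2%, 10 and 8 ewes). Genes called in the same direction in Belclare and Suffolk numbered 1572, which is 48.4% of the Belclare and 63.4% of the Suffolk calls. For Fur they numbered 2036 (62.7% of the Belclare and 58.9% of the Fur calls) and for NWS 1953 (60.1% and 60.6%). Calls in opposite directions numbered 1 in Suffolk, 7 in Fur and 10 in NWS. Of the Belclare calls 94.6% had the same sign in Suffolk, 95.3% in Fur and 95.2% in NWS, against 80.8%, 80.0% and 81.2% of all genes tested.

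By list, the matrix genes held 19 rises and 2 falls in Suffolk, 13 and 3 in Fur and 17 and 3 in NWS, and the lysosomal genes 22 and 1, 10 and 5 and 9 and 4. Their median log2 fold changes were 0.57, 0.35 and 0.52 for the matrix and 0.66, 0.37 and 0.23 for the lysosomal list. The lists held 44 matrix and 43 lysosomal identifiers. Of the 1313 genes with a symbol 273 rose and 33 fell in Suffolk, 192 and 197 in Fur, and 155 and 184 in NWS. Of all genes tested 17.1%, 23.8% and 22.2% were called in these breeds. All genes with a symbol had medians of 0.24, 0.00 and -0.07, and their names come from comparisons of Suffolk with other breeds. TAC3 was higher in the follicular phase in each breed, with log2 fold changes on ENSOARG00000007920 of 3.86 in Suffolk (SE 0.65), 7.49 in Fur (SE 0.68) and 4.35 in NWS (SE 0.87). ADAM7 was higher in the luteal phase in each, with -5.75 (SE 1.01), -3.67 (SE 1.10) and -6.15 (SE 0.85). MUC5AC had log2 fold changes of 1.88 (adjusted p = 0.126), 1.20 (adjusted p = 0.0395) and 1.95 (adjusted p = 0.0175).

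Whether the phase difference itself differed between breeds was tested as an interaction, called at an adjusted p under 0.05. Between Belclare and Suffolk no gene was called (0%), with 1568 genes at an unadjusted p under 0.05 by edgeR and 22 genes called by DESeq2. Between Belclare and Fur 100 genes were called (0.689%), 47 of them with the more positive log2 fold change in Belclare (69 of 114 with DESeq2's size factors), and between Belclare and NWS 71 (0.489%), 54 of them more positive in Belclare. Of these, 19 genes were called in both and differed in the same direction. Fur and NWS are Norwegian breeds sampled in Norway, whereas Belclare was sampled in Ireland, and the effects of breed and of country cannot be told apart here. The counts moved in both directions with the analysis. DESeq2 called 377 genes with Fur and 231 with NWS, and without follicular replicate 2 and luteal replicate 7 edgeR called 306 and 309. Without a filter on low counts it called 61 and 18, and with the replicate block 128 and 0. The NWS split of 54 more positive of 71 was 167 of 309 without the 2 libraries and 10 of 18 without a filter.

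GREB1 rose more in Belclare than in either Norwegian breed, by a log2 difference of 1.84 against Fur (SE 0.40, adjusted p = 0.0253) and 2.42 against NWS (SE 0.55, adjusted p = 0.0378). Its own log2 fold changes were 3.20 in Suffolk, 3.01 in Fur and 2.45 in NWS, and the difference from Suffolk, 1.68, was not called (adjusted p = 0.254). PADI4 differed from NWS, where it rose by 2.33, by 2.602 (SE 0.63, adjusted p = 0.0476). KLF11, a zinc finger transcription factor gene, rose by 0.95 in Belclare (SE 0.21) and had log2 fold changes of -0.63 in Fur (SE 0.24) and -0.87 in NWS (SE 0.27), and both differences were called. CTSK rose in Belclare and had log2 fold changes of -0.14 in Fur (SE 0.19) and -0.30 in NWS (SE 0.16), differing by 1.15 and 1.33 (adjusted p = 0.0347 and 0.00994).

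The log2 fold change of COMP was 0.18 in Fur (SE 0.19), where it was not called, against 1.95 in Belclare (difference 1.75, adjusted p = 0.00952). CALCOCO1, a coactivator gene, was not called in Belclare, with a log2 fold change of 0.09 (SE 0.16), and had a log2 fold change of -1.02 in Fur (SE 0.15). AQP9 stood at -1.90 on the log2 scale in Fur (SE 0.97, adjusted p = 0.119), where it was not called, and differed from Belclare by -4.23 (SE 1.04, adjusted p = 0.0453). Against NWS the smallest p-values among named genes were those of TMEM86A, LAMP1 and CTSK. TMEM86A rose by 0.59 in Belclare, at the fold limit, and had a log2 fold change of -0.59 in NWS. Leaving out single Belclare ewes gave 0.486 to 0.653, and the call was lost without follicular replicate 3, 5, 9 or 10 or luteal replicate 3, 5, 6 or 10. LAMP1, the lysosomal membrane marker, was at 346.4, 407.3 and 477.7 CPM against 317.0, 327.5 and 343.0 CPM in Belclare, a log2 fold change of 0.34 (SE 0.06) that was too small for a call but separated the phases, and had -0.18 in NWS (SE 0.08).

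**Figure D5:**
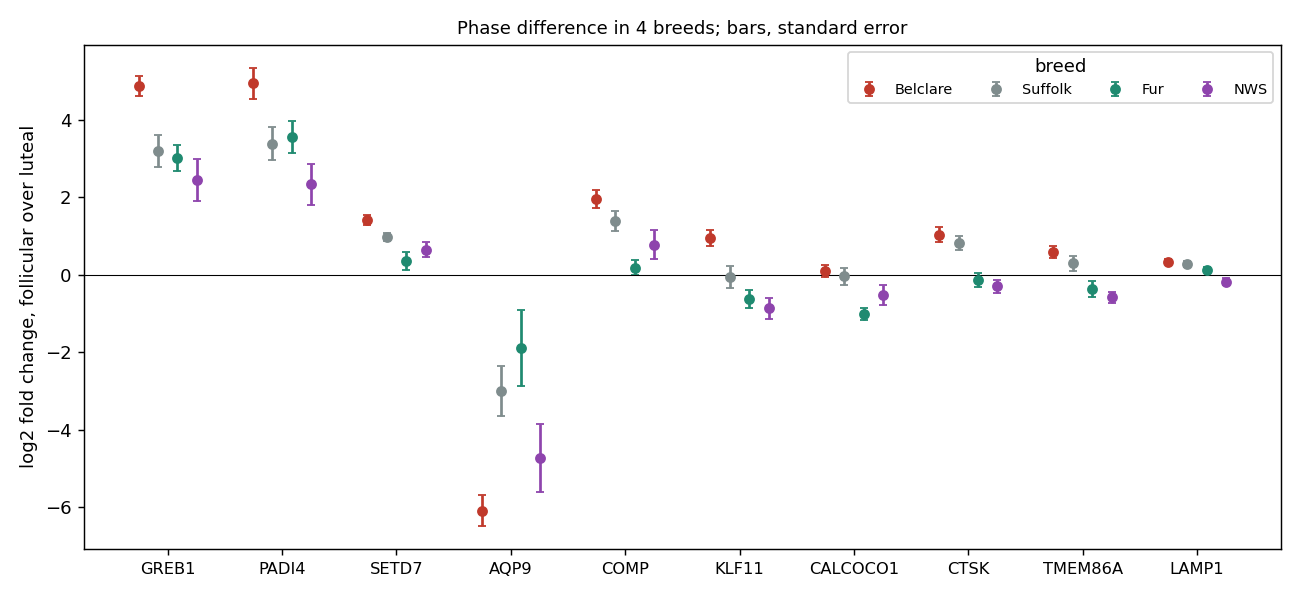
Log2 fold change between the synchronised follicular and luteal phase (y axis) of 10 genes in Belclare, Suffolk, Fur and NWS ewes, with bars of 1 standard error. GREB1 stands at 4.88 in Belclare and between 2.45 and 3.20 in the other breeds, and KLF11 is positive in Belclare and negative in Fur and NWS.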

How the data were processed

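Per the labels and the study's methods, the authors aligned stranded poly(A) reads to the sheep assembly Oar_v3.1 with STAR 2.6.1b, counted them per Ensembl gene with Subread 1.6.3, and deposited raw counts for each of 115 libraries. Here 20 Belclare libraries were compared, and 1 library of the series with conflicting labels was left out. Genes with at least 1 CPM in 8 of the 20 libraries were kept (14521 of 27054), normalised by TMM and tested with the quasi-likelihood test of edgeR 4.0.16 in R 4.3.3, with DESeq2 1.42.0 as an alternative. The interaction models hold breed, phase and their product, and like the fits of the other breeds they use the genes of the Belclare filter. Scripts were tested on simulated data. Leaving out follicular replicate 2 and luteal replicate 7 together was chosen after seeing the data. Symbols for 1352 identifiers came from the study's supplementary tables. Some genes that the naming rule selects are not reported here.

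Named genes were, by rule, the 12 called genes of smallest p and the 4 of largest change in each direction, called members of the gene lists (up to 6 with values), 11 genes fixed by name, 2 without a symbol in each direction, and 3 from each interaction. Members and lists were chosen with earlier results of these data known. Libraries of a group differed beyond sampling noise (chi-square per degree of freedom of at least 32.5 over 90 pairs). Ewes of the same replicate number are not the same animal, and their deviations correlated between -0.44 and 0.28. Labels give no batch, so batch and phase cannot be told apart.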

Additional observations from a re-analysis of the deposited data

Results flagged for a closer look

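Of 94 groups of 10 values checked for a single value far from the other 9 (Dixon's 95% limit on the gap to the nearest value over the whole range, on log2 of CPM plus 0.1 for genes), 11 were found, where chance gives about 1 in 20. Follicular replicate 2 gave 7799 CPM of DES (next 494.7), 5549 CPM of ACTG2 (next 309.5) and the lowest AQP9, 0.216 CPM. Luteal replicate 7 gave 318.1 CPM of MUC5AC (next 11.6), the lowest luteal ANGPTL2, 19.97 CPM, and 19.6% of its counts in 10 genes. Follicular replicate 10 had 75.1 CPM of PFKFB3 and follicular replicate 1 had 2.09 CPM of COMP, the lowest of its group. Luteal replicate 1 had the lowest MCOLN2, 10.6 CPM, and the highest RBP2, 0.966 CPM. Luteal replicate 4 held the 1 count of ENSOARG00000017850 among luteal ewes, 0.057 CPM.

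Phase differences of the described genes that differed between breeds in the interaction test were, as Belclare minus Fur on the log2 scale, 1.84 for GREB1, 1.04 for SETD7, -4.23 for AQP9, 1.75 for COMP, 1.56 for KLF11, 1.08 for CALCOCO1 and 1.15 for CTSK. As Belclare minus NWS they were 2.42 for GREB1, 2.602 for PADI4, 1.82 for KLF11, 1.17 for TMEM86A, 0.50 for LAMP1, 1.33 for CTSK and 6.08 for ENSOARG00000017850, whose size depends on the prior count since luteal Belclare ewes are at or near 0.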

How the results depend on the processing

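Against 3249 genes called, 6331 passed without a fold threshold (3329 higher in the follicular and 3002 in the luteal phase) and 1138 passed a test against a 1.5-fold change (711 and 427). Leaving out 1 ewe at a time gave 3038 to 3555 calls, 1621 to 1903 higher in the follicular and 1370 to 1652 in the luteal phase. Other size factors, both DESeq2 tests, both other filters, fits with more ewes and the fit without the 2 libraries that stood apart stayed within 1.5 times. Replicate numbers do not pair ewes: with the replicate block 2949 genes were called, and 0 follicular and 1 luteal libraries correlated best with their own number.

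For the interaction with Suffolk DESeq2 called 22 genes (12 more positive and 10 more negative in Belclare) and the fit without the 2 libraries 2 (1 and 1). With Fur these were 377 (211 and 166) and 306 (162 and 144), and without a filter 61 (31 and 30). With NWS they were 231 (155 and 76), 309 (167 and 142) and 18 (10 and 8), and the replicate block left 0 of 71. With Fur the block gave 128, and DESeq2's size factors gave 114 (69 and 45). The cause was not tested.

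DES turned to -1.49 by DESeq2's Wald and likelihood ratio tests, -0.92 with the replicate block, -1.56 without follicular replicate 2 and -1.68 without both libraries, and leaving out 1 ewe at a time gave -1.56 to 1.28. ACTG2 turned to -0.75 by both DESeq2 tests, -0.78 without follicular replicate 2 and -0.91 without both, with -0.78 to 1.92 over single ewes left out, and was called at 1.61 when all 4 breeds shared a fit (adjusted p = 0.0219). MUC5AC turned to 1.02 by both DESeq2 tests, 1.06 with the block, 1.73 without luteal replicate 7 and 1.78 without both, with -1.81 to 1.73 over single ewes left out. CALCOCO1 turned to -0.041 without follicular replicate 10 (highest 0.147).

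With 10 ewes a phase the median standard error was 0.15 on the log2 scale, and 0.21 to 0.22 for an interaction, so small differences between breeds could go uncalled. In the luteal phase 3 counts correspond to 0.165 CPM on average, and levels near that are not resolved.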
